A study of Mus musculus with 27 samples.

Results

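The 8 genes described here are the aryl hydrocarbon receptor gene Ahr, its partner Arnt, its repressors Ahrr and Tiparp, and the target genes Cyp1a1, Cyp1b1, Nqo1 and Aldh3a1. All 8 were present among the 24454 gene rows of the expression table, which held 27 RNA-seq libraries of mouse mammary tumour cell lines. Ahr was chosen by its response to Wnt3a and Aldh3a1 by its fall with TGFβ, both measured in these same libraries, and the other 6 genes were added as known parts of the pathway. Values of Ahr in any comparison that involves Wnt3a libraries, and of Aldh3a1 in any comparison that involves TGFβ libraries, are therefore descriptions without a test.

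The aryl hydrocarbon receptor is a ligand-activated transcription factor that waits in the cytoplasm in a complex with Hsp90 and other chaperones. After binding a ligand, such as a polycyclic aromatic hydrocarbon or a tryptophan derivative, it moves to the nucleus, pairs with Arnt and binds a short DNA motif, the xenobiotic response element, upstream of genes that encode drug-metabolising enzymes. Ahrr competes with the receptor for Arnt, and Tiparp, an ADP-ribosyltransferase, is both a target and a repressor of the receptor, so that the pathway limits itself. In mammary tumour cells the receptor is known mainly through its enzymes Cyp1a1 and Cyp1b1, which oxidise hydrocarbons and oestrogens.

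The cell lines came from mammary tumours of FVB/N mice that carry MMTV-PyMT, a transgene that drives the polyoma middle T oncogene in mammary epithelium. Lines labelled dHD1/fl or dHD2/fl held, for both Bcl9 and Bcl9l, an allele without the HD1 domain, which binds Pygopus, or without the HD2 domain, which binds β-catenin, next to a floxed allele. In the dHD1/- and dHD2/- lines the floxed allele had been removed in culture with an adenovirus that expressed Cre and GFP, followed by a sort for GFP, so the controls carried the domain deletion too. Each genotype was grown without cytokine for 4 days, with Wnt3a at 100 ng/ml for 3 days or with TGFβ at 2 ng/ml for 4 days, with 2 lines in each of 3 genotypes and 3 lines in dHD2/-. Each Wnt3a comparison with untreated cells therefore sets a labelled time of 3 days against 4 days, so that the cytokine and this time cannot be told apart, although the labels also say that the cultures were plated together and their RNA isolated at one time.

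The xenobiotic response element has the core GCGTG. RefSeq promoter sequences of GRCm38.p6 were at hand for 6 of the 8 genes (not for Ahr and Aldh3a1), and the 250 bases before the start of transcription are shown for 3 target enzymes and both repressors, because the receptor is known to act through this motif. Capitals mark the core on either strand (read as CACGC where it lies on the other strand).
Cyp1a1 (chr9:57697363-57697612, plus strand): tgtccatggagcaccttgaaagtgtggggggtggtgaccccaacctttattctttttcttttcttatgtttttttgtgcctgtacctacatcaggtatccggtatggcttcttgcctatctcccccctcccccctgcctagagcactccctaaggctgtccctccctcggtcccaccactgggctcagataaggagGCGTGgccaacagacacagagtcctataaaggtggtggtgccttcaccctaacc
Cyp1b1 (chr17:79715062-79715311, minus strand): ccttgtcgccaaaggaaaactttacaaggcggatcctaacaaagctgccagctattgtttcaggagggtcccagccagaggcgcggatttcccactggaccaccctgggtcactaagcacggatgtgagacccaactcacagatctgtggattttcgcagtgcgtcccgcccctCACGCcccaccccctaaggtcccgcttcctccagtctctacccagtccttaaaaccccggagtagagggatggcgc
Ahrr (chr13:74292332-74292581, minus strand): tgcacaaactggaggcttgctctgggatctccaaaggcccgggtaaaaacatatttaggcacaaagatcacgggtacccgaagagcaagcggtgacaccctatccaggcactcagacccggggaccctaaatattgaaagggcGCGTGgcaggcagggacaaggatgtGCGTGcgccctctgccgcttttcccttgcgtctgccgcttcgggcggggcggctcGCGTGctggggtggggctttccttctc
Tiparp (chr3:65528197-65528446, plus strand): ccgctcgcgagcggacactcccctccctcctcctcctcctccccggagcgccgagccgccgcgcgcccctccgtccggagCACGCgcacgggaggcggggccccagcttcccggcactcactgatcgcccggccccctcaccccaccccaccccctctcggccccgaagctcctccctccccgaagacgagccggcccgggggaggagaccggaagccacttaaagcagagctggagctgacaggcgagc
Nqo1 (chr8:107403206-107403455, minus strand): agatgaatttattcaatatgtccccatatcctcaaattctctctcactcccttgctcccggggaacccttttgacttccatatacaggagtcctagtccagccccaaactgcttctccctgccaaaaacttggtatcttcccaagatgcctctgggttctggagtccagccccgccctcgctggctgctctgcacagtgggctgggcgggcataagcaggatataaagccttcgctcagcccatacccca
The core was found once in Cyp1a1, 54 bases before the start, once in Cyp1b1 and Tiparp, 76 and 170 bases before the start on the other strand, and 3 times in Ahrr, at 107, 82 and 27 bases. Arnt held 1 core, 29 bases before its start, while the Nqo1 window held none. Of 32851 promoters of the same length, 28.2% held the core on at least 1 strand, so 5 of 6 matched genes is a description of these windows and not evidence of binding. The Cyp1a1 window lies inside the listed span of the gene (chr9:57687928-57703824).

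The libraries held 21.86 to 33.69 M reads (M, 1000000), with a median of 25.96 M, so that 3 reads, taken here as the floor of detection, were worth 0.089 to 0.137 counts per 1000000 reads (CPM). Axin2, a feedback target of Wnt signalling, was higher with Wnt3a in 9 of 9 lines (0.131 to 2.97 CPM untreated, 13.5 to 80.8 CPM with Wnt3a), and Fn1, fibronectin, was higher with TGFβ in 9 of 9 lines (3370.5 to 13599.7 CPM untreated, 12583.0 to 46938 CPM treated). Bcl9 stood between 32.4 and 104.1 CPM and Bcl9l between 70.7 and 345.9 CPM in all libraries, but counts per gene do not separate the mutant from the floxed allele and so do not check the recombination. Of 6 epithelial markers, 4 were under 1 CPM in untreated dHD1/fl line 2 and 3 in untreated dHD1/- line 2, where Cdh1, the epithelial cadherin, stood at 0.522 and 0.237 CPM against 606.5 to 1144.9 CPM in the other 7 lines. These 2 lines also held the highest summed level of 6 fibroblast markers untreated (1179 and 1103.5 CPM, against 0.209 to 204.5 CPM elsewhere), although Lum, Dpt and Thy1 did not exceed 1.77 CPM in any library. Of 5 leukocyte markers, Ptprc, Cd3e and Adgre1 reached 0.252, 0.0862 and 0.0428 CPM at most, but Cd68 reached 24.5 CPM and Csf1r 175.2 CPM, and the summed level ran from 3.01 to 183.2 CPM untreated, from 3.28 to 185.9 CPM with Wnt3a and from 3.02 to 71.6 CPM with TGFβ. The highest untreated sum was that of dHD1/- line 2, and the other 8 lines held 3.01 to 16.1 CPM. The part of these markers in the results was not tested. The adipocyte markers reached 0.0373 CPM and the summed endothelial markers stayed between 0.0428 and 6.47 CPM. The dHD2/- lines 2 and 3 correlated with each other at r = 0.9926 to 0.9971 within a treatment, against 0.8072 to 0.9574 for every other pair of lines of a genotype, while the labels speak of lines from 2 mice per genotype and do not say whether these lines share a mouse. Results on dHD2/- that change when these lines are counted as 1 are given both ways. Unless the cell line was fitted as a block, the spread behind each p-value is that of libraries around their group means. The libraries of a line then count as independent, although they deviated together (r = 0.509 to 0.94). When the cell line was fitted as a block, differences between lines were taken out and the spread was that within lines. In bulk RNA, fewer cells that express a gene and less RNA per cell cannot be told apart.

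Ahr itself (Entrez 11622, chr12:35497979-35534989) stood higher with Wnt3a than without it in 8 of 9 lines and lower with TGFβ in 9 of 9. Untreated, it stood at 29.5 and 27.1 CPM in dHD1/fl lines 1 and 2, 22.6 and 32.7 CPM in dHD1/- lines 1 and 2, 35.8 and 24.4 CPM in dHD2/fl lines 1 and 2, and 15.5, 16.3 and 15.6 CPM in dHD2/- lines 1, 2 and 3. The 3 dHD2/- lines were the lowest untreated lines, and their range did not reach that of any other genotype. With Wnt3a it stood at 109.7 and 266 CPM in dHD1/fl, 53.3 and 30.4 CPM in dHD1/-, 168 and 154 CPM in dHD2/fl, and 17.1, 37.4 and 37.7 CPM in dHD2/-, in the same order of lines. The 4 fl lines held at least 109.7 CPM and the 5 recombined lines at most 53.3 CPM, without overlap. With TGFβ the levels were 28.8 and 18.5 CPM in dHD1/fl, 5.52 and 6.52 CPM in dHD1/-, 19.6 and 14.6 CPM in dHD2/fl, and 8.44, 7.76 and 6.13 CPM in dHD2/-. Again the 5 recombined lines lay below the 4 fl lines. The share of all genes split in this way over both families was not counted, and Ahr was chosen by its values with Wnt3a.

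As a fold over the untreated cells of the same line, the Ahr level with Wnt3a was 3.72 to 9.80 times in the 4 fl lines (median 5.49) and 0.932 to 2.42 times in the 5 recombined lines (median 2.29). The lowest was dHD1/- line 2, and dHD2/- line 1 stood at 1.1 times its untreated level. On the log2(CPM + 1) scale, which damps changes of weakly expressed genes, the fitted Wnt3a response was 2.55 ± 0.41 (SE, n = 2 lines) in dHD1/fl and 2.40 ± 0.41 in dHD2/fl, against 0.55 ± 0.41 in dHD1/- and 0.83 ± 0.33 (n = 3) in dHD2/-, and its mean over genotypes was 1.58 ± 0.19. The response of dHD1/- minus that of dHD1/fl was -2.00 ± 0.57, and that of dHD2/- minus dHD2/fl was -1.57 ± 0.52. Ahr was selected on these values, and no p-value is attached to them.

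**Figure D1:**
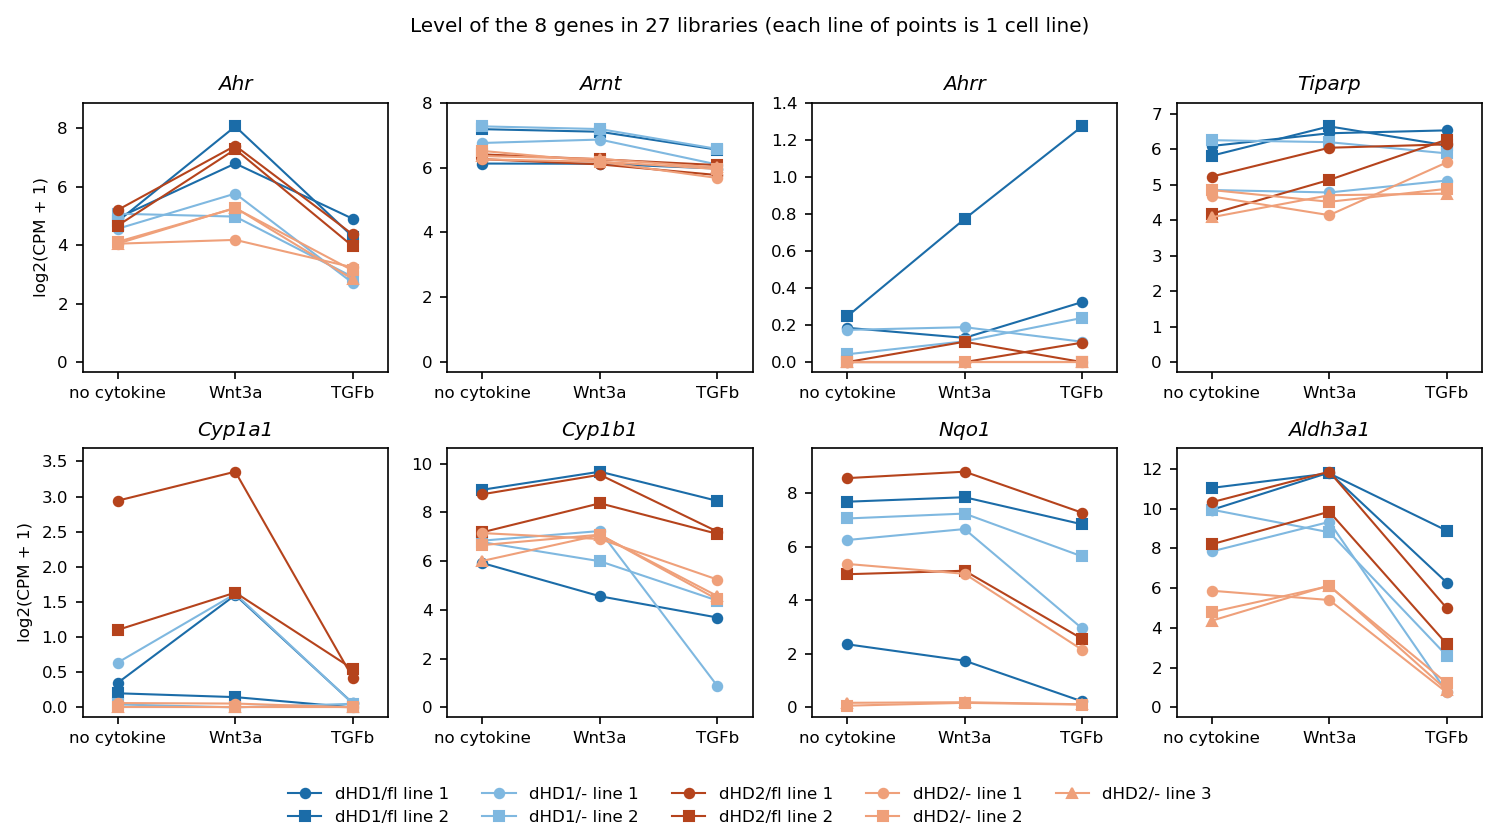
Level of each of the 8 genes, as log2(CPM + 1) on the y axis, without cytokine, with Wnt3a and with TGFβ, with the 3 points of each of the 9 cell lines joined (blue, dHD1; red, dHD2; dark, fl; light, recombined). Each panel has its own y axis, which starts just below 0. With Wnt3a, the 4 fl lines (dark) lie above the 5 recombined lines (light) for Ahr, which was chosen by its Wnt3a values, and for Aldh3a1. The other genes overlap there, and the share of all genes with this split over both families was not counted.

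TGFβ lowered Ahr. Its level was lower than in untreated cells in 9 of 9 lines, at 0.199 to 0.979 times the untreated level, and the mean response was -1.02 ± 0.19 (SE, adjusted p = 0.00206, limma with Benjamini-Hochberg adjustment over 13270 genes). This comparison uses the same untreated libraries as the Wnt3a comparison. The fall was called in dHD1/- (-2.01 ± 0.41, adjusted p = 0.0189), where both lines went from 22.6 and 32.7 CPM to 5.52 and 6.52 CPM, and not in dHD1/fl (-0.28 ± 0.41, adjusted p = 0.956), dHD2/fl (-0.77 ± 0.41, adjusted p = 0.626) or dHD2/- (-1.0 ± 0.33, adjusted p = 0.208). The difference in response between dHD1/- and dHD1/fl (-1.73 ± 0.57) did not pass the test itself (adjusted p = 1.0), so the genotypes were not shown to differ. In dHD1/- line 1, Cdh1 went from 817.4 to 4.29 CPM and Epcam, another epithelial marker, from 263.4 to 12.5 CPM with TGFβ, while in line 2 Cdh1 stood at 0.237 and 0.288 CPM and Epcam had no read. The summed level of the 6 epithelial markers went from 4418.1 to 2609.1 CPM in line 1 and from 1315.5 to 3002.9 CPM in line 2, and the part of these markers in the fall of Ahr was not tested. The mean response passed an adjusted p of 0.05 under all 19 alternatives, but at -0.86 with median-of-ratios scaling, -0.93 with edgeR and -0.91 with DESeq2 it lay inside the limit of 1 set on the log2 scale, as it did at -0.95 without dHD1/fl line 2, -0.98 without dHD1/- line 2, -0.99 without dHD2/- line 3, -1.0 (before rounding, inside the limit) without dHD2/fl line 1 and -0.92 without both lines numbered 2 of the dHD1 family. The call in dHD1/- was lost without either of its own lines (adjusted p = 0.127 and 0.236), without dHD2/- line 2 (adjusted p = 0.0613) or line 3 (adjusted p = 0.0585), with these 2 averaged (adjusted p = 0.0568), without both dHD1 lines numbered 2 (adjusted p = 0.0776) and in a fit of the compared groups alone (adjusted p = 0.477).

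Ordered by group mean, Ahr was highest with Wnt3a in dHD1/fl (187.7 ± 110.4 CPM, SD, n = 2) and dHD2/fl (160.8 ± 9.69 CPM, n = 2), whose ranges overlapped, and these were separated from all other groups. The next 8 groups, from dHD1/- with Wnt3a (41.9 ± 16.1 CPM, n = 2) down to untreated dHD2/- (15.8 ± 0.429 CPM, n = 3), formed a chain in which every neighbour overlapped. The lowest were dHD2/- with TGFβ (7.44 ± 1.19 CPM, n = 3) and dHD1/- with TGFβ (6.02 ± 0.704 CPM, n = 2), which overlapped each other and none of the rest.

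Arnt, the partner that the receptor needs on DNA and shares with the hypoxia-inducible factors, was expressed in every line. Untreated, Arnt (Entrez 11863, chr3:95434367-95497240) stood at 68.8 and 145 CPM in dHD1/fl, 107.5 and 154 CPM in dHD1/-, 75.7 and 84.0 CPM in dHD2/fl, and 75.4, 90.5 and 81.0 CPM in dHD2/-. With Wnt3a it stood at 68.6 and 137, 116 and 145, 67.6 and 75.5, and 71.4, 71.8 and 76.1 CPM in the same groups, and with TGFβ at 61.8 and 92.9, 67.4 and 94.4, 53.6 and 66.6, and 50.3, 61.2 and 63.2 CPM. Wnt3a left it at 0.793 to 1.08 times the untreated level, with a mean response of -0.09 (95% interval -0.42 to 0.24). Its level with TGFβ was lower in 9 of 9 lines (0.614 to 0.897 times), and the mean response of -0.50 ± 0.16 passed the adjusted p in limma (0.0402, and 5.21e-05 with the cell line as a block) but not the fold limit. It did not pass with median-of-ratios scaling (-0.32, adjusted p = 0.188), edgeR (-0.36, adjusted p = 0.123) or DESeq2 (-0.35, adjusted p = 0.121). Nor did it pass in limma without a filter (0.0535), in the compared groups alone (0.0543), with dHD2/- lines 2 and 3 averaged (0.0909) or when any line of dHD1/-, dHD2/fl or dHD2/- was left out (0.0715 to 0.142). The recombined and the fl lines of a family overlapped under every treatment.

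The repressor Ahrr (Entrez 11624, chr13:74211118-74292331) was close to the floor. It had no read in any of the 9 dHD2/- libraries. In dHD1/fl lines 1 and 2 it stood at 0.137 and 0.186 CPM untreated, 0.0951 and 0.710 CPM with Wnt3a and 0.252 and 1.42 CPM with TGFβ, while the dHD1/- libraries lay between 0.0297 and 0.180 CPM and the dHD2/fl libraries between 0 and 0.0793 CPM. A comparison of treatments was possible in dHD1/fl line 2, which held almost no Cdh1, with 5 reads untreated, 20 with Wnt3a and 40 with TGFβ, or 3.81 and 7.62 times the untreated CPM. Since a single library reached 1 CPM, Ahrr did not meet the filter of 1 CPM in 2 libraries, and 7 of the 8 genes were tested.

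Tiparp (Entrez 99929, chr3:65528447-65555518) was the one gene of the 7 tested with a positive mean difference with TGFβ. Untreated, it stood at 67.2 and 55.4 CPM in dHD1/fl, 27.8 and 75.4 CPM in dHD1/-, 36.5 and 17.1 CPM in dHD2/fl, and 24.5, 27.8 and 15.9 CPM in dHD2/-. With TGFβ it stood at 91.5 and 67.9, 33.7 and 58.0, 69.3 and 76.2, and 48.5, 28.5 and 25.9 CPM, which was higher in 8 of 9 lines. The mean difference of 0.59 ± 0.25 did not pass (adjusted p = 0.109), and with the cell line as a block its adjusted p was 0.0121 with the same value, under the fold limit. In dHD2/fl, where line 2 went from 17.1 to 76.2 CPM, the response was 1.5 ± 0.51 (adjusted p = 0.347) without the block and passed with it (adjusted p = 0.0211). Without the block it was 0.91, under the fold limit, without dHD2/fl line 2 (adjusted p = 1.0) and 2.09 without line 1 (adjusted p = 0.848). With Wnt3a it stood at 86.4 and 99.0, 26.5 and 72.4, 64.9 and 34.1, and 16.6, 21.9 and 25 CPM. All 4 fl lines were higher with Wnt3a (1.29 to 1.99 times) and 4 of the 5 recombined lines lower, and the mean response of 0.33 ± 0.25 did not pass (adjusted p = 1.0). The gene overlaps 4931440P22Rik in the annotation, and reads in the shared part cannot be assigned to either with certainty.

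The targets differed widely in level. Divided by the summed exon length of GENCODE vM21, the untreated median over 9 lines was 159 CPM per kilobase for Aldh3a1, 25.7 for Nqo1, 21.8 for Cyp1b1 and 0.0535 for Cyp1a1, beside 17.4 for Arnt, 6.64 for Tiparp, 4.4 for Ahr and 0.0 for Ahrr. The ranges over lines were wide for Nqo1 (0.0290 to 241.5 CPM per kilobase) and Aldh3a1 (10.6 to 1142.5) and narrow for Arnt (14.2 to 31.8).

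Cyp1a1 (Entrez 13076, chr9:57687928-57703824), the enzyme most often used as a readout of receptor activity, was near the floor in most lines. It was highest in dHD2/fl, at 6.68 and 1.15 CPM untreated, 9.22 and 2.10 CPM with Wnt3a and 0.340 and 0.462 CPM with TGFβ. In the 9 dHD2/- libraries it never exceeded 0.0437 CPM, which is 1 read, and 7 of them had none. In dHD1/fl it stood at 0.274 and 0.149 CPM untreated, 2.03 and 0.107 CPM with Wnt3a and 0.0420 and 0 CPM with TGFβ, and in dHD1/- at 0.556 and 0.0297, 2.06 and 0, and 0.0397 and 0.0360 CPM. The line numbered 1 of each dHD1 genotype thus carried the reads with Wnt3a. With Wnt3a, dHD2/- lay below dHD2/fl by -2.48 ± 0.55 (adjusted p = 0.0429) on the log2(CPM + 1) scale, which is held down at these low levels. Without cytokine the same difference was -2.00 ± 0.55 (adjusted p = 0.169, and 0.0284 with DESeq2), or -1.08 without dHD2/fl line 1 and -2.92 without dHD2/fl line 2. With TGFβ it was -0.48 ± 0.55 (adjusted p = 0.92). This one call did not hold when dHD2/- lines 2 and 3 were averaged (adjusted p = 0.317), without either of them (adjusted p = 0.332 and 0.317), without dHD2/fl line 1 (-1.62, adjusted p = 0.495), in the compared groups alone (adjusted p = 0.248) and with edgeR (adjusted p = 0.268).

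Cyp1b1 (Entrez 13078, chr17:79706940-79715061), which oxidises oestradiol, was expressed in all lines. Untreated, it stood at 59.5 and 485 CPM in dHD1/fl, 113 and 108 CPM in dHD1/-, 427 and 144 CPM in dHD2/fl, and 141, 99.7 and 63.3 CPM in dHD2/-. With Wnt3a the levels were 22.5 and 811, 149 and 62.7, 743 and 329.7, and 119, 134 and 133 CPM. With TGFβ they were 11.9 and 353, 0.834 and 19.8, 147 and 138, and 36.8, 20.5 and 22.6 CPM. Cyp1b1 was thus lower with TGFβ in 9 of 9 lines, at 0.00736 to 0.954 times the untreated level, while Wnt3a gave 6 higher and 3 lower lines. The mean TGFβ response was -2.05 ± 0.72 (adjusted p = 0.06) and did not pass as fitted. With the cell line as a block, which takes out differences between lines such as 59.5 against 485 CPM in untreated dHD1/fl, the same difference had an SE of 0.40 and was called (adjusted p = 0.00127), and in dHD1/- alone it was -4.18 (adjusted p = 0.215 without the block and 0.00467 with it). That value joins 2 unlike lines, and without the block it was -2.4 (adjusted p = 0.966) without dHD1/- line 1 and -5.96 (adjusted p = 0.34) without dHD1/- line 2. The mean response over genotypes was -1.82 without dHD1/fl line 1, -2.27 without dHD1/fl line 2 and -2.71 without both dHD1 lines numbered 2. Each of these fits leaves a single line in a group. In dHD1/- line 1, where Cyp1b1 went from 113 to 0.834 CPM, Cdh1 went from 817 to 4.29 CPM with the same treatment, and the part of this in the result was not tested.

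Nqo1 (Entrez 18104, chr8:107388225-107403205), a quinone reductase that answers to both the receptor and Nrf2, differed widely between lines. Untreated, it stood at 4.12 and 203 CPM in dHD1/fl, 74.9 and 131 CPM in dHD1/-, 375 and 30.3 CPM in dHD2/fl, and 39.9, 0.0450 and 0.126 CPM in dHD2/-. The dHD2/- lines 2 and 3 held 1 to 4 reads in each of their 6 libraries. With Wnt3a it stood at 2.35 and 228, 99.8 and 149, 443 and 33.3, and 30.7, 0.124 and 0.143 CPM, and with TGFβ at 0.168 and 113, 6.71 and 48.7, 153 and 4.90, and 3.44, 0.0739 and 0.0834 CPM. In each of the 7 lines with a level to lose, TGFβ left it at 0.0409 to 0.556 times the untreated level. The mean response of -1.69 ± 1.26 did not pass (adjusted p = 0.383), but with the cell line as a block its SE was 0.34 and it was called (adjusted p = 0.00158), as it was in dHD1/- (-2.36, adjusted p = 0.811 without the block and 0.035 with it). Without the block, the value in dHD1/- was -1.42 without its line 1 and -3.3 without its line 2 (adjusted p = 1.0 and 0.954). Wnt3a left it at 0.570 to 1.33 times, with a mean response of 0.04 (95% interval -2.61 to 2.70, and -0.69 to 0.78 with the block).

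Aldh3a1 (Entrez 11670, chr11:61208510-61218418), an aldehyde dehydrogenase that is a textbook member of the receptor's gene battery, had the highest untreated median per kilobase of the 8. Untreated, it stood at 983 and 2117 CPM in dHD1/fl, 229.9 and 990.3 CPM in dHD1/-, 1283 and 295 CPM in dHD2/fl, and 57.6, 26.8 and 19.6 CPM in dHD2/-. With Wnt3a the levels were 3617 and 3510.1 CPM, 645 and 449 CPM, 3729.6 and 923 CPM, and 41.4, 68.0 and 69.3 CPM. All 4 fl lines and 3 of the 5 recombined lines were higher with Wnt3a than without, and dHD1/- line 2 and dHD2/- line 1, where Ahr stood at 0.932 and 1.1 times its untreated level, were lower. The mean Wnt3a response of 0.98 ± 0.46 did not pass (adjusted p = 1.0 without and 0.175 with the cell line as a block). Which lines moved together here is a description, since Ahr was chosen by its own Wnt3a values.

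With TGFβ, Aldh3a1 stood at 76.9 and 476 CPM in dHD1/fl, 0.715 and 5.08 CPM in dHD1/-, 30.9 and 8.13 CPM in dHD2/fl, and 0.681, 1.33 and 0.834 CPM in dHD2/-. This is the change it was chosen by. The level was 4.45 to 41.5 times lower than untreated in the fl lines and 20.2 to 321.6 times lower in the recombined lines, and the fitted responses were -2.90 ± 0.96 in dHD1/fl, -7.21 ± 0.96 in dHD1/-, -5.18 ± 0.96 in dHD2/fl and -4.06 ± 0.78 in dHD2/- (mean -4.84 ± 0.46). The dHD2/- lines began lower and ended near 1 CPM, where the added 1 CPM limits the fitted change.

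**Figure D2:**
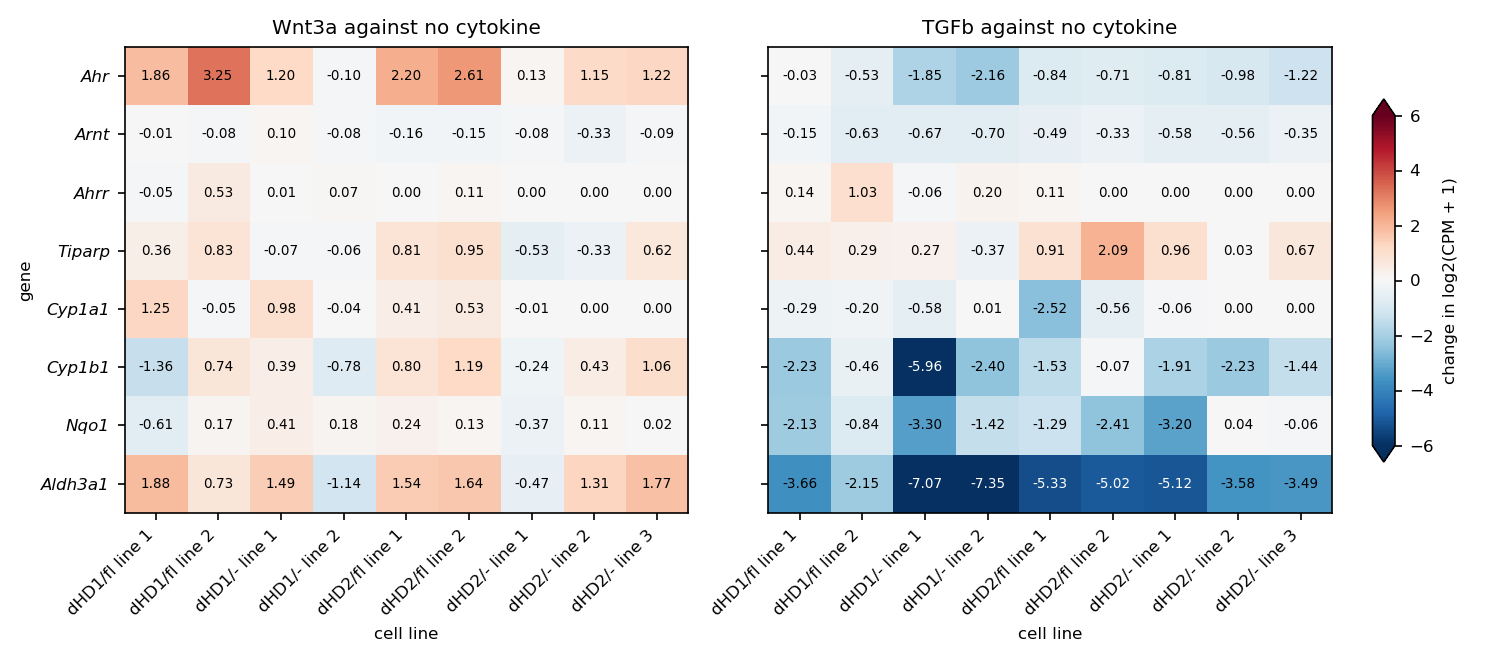
Change in log2(CPM + 1) from untreated cells of the same line, for each of the 8 genes (rows) in each of the 9 cell lines (columns), with Wnt3a (left) and with TGFβ (right); red is higher and blue lower, and colours stop at 6. With TGFβ, Ahr, Arnt, Cyp1b1 and Aldh3a1, the last chosen by this fall, were lower in 9 of 9 lines, and with Wnt3a no gene was higher in all 9. The share of all genes lower in 9 of 9 lines was not counted. The median of all genes lay at -0.163 in the mean TGFβ response, beyond the smallest falls of Ahr (-0.03), Cyp1b1 (-0.07) and Arnt (-0.15).

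Across the 20 comparisons fitted, a gene was called at an adjusted p of at most 0.05 and a change of at least 1 on the log2(CPM + 1) scale. For the mean Wnt3a response, 0.0226% of the 13270 genes tested were called, and 0 of the 6 genes open to a test here, with 1 (Aldh3a1) at an unadjusted p under 0.05 in limma and 0 called by edgeR or DESeq2. Within genotypes, 0.0151% of all genes were called with Wnt3a in dHD1/fl, 0.00754% in dHD1/-, 0.113% in dHD2/fl and 0.00754% in dHD2/-, and 0 of the 6 in each, with 0 at an unadjusted p under 0.05 in limma and 0 by edgeR or DESeq2. The 95% intervals of the mean responses, in log2(CPM + 1), where the added 1 shrinks changes of genes at low counts, reached from -0.22 to 0.99 for Cyp1a1, from -1.29 to 1.74 for Cyp1b1 and from -0.19 to 0.85 for Tiparp. For Cyp1a1, at few reads in many libraries, edgeR and DESeq2 gave a log2 fold change of 1.22 (adjusted p = 1.0 in both), outside that interval and against 0.38 in limma.

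For the mean TGFβ response, 5.42% of all genes were called, and 1 of the 6 open to a test (Ahr), with 4 at an unadjusted p under 0.05 (Ahr, Arnt, Cyp1b1 and Tiparp) and 0 by edgeR or DESeq2. With the cell line as a block, 8.92% of all genes and 3 of the 6 (Ahr, Cyp1b1 and Nqo1) were called, all 3 lower. The median of all genes lay at -0.163, and at -0.02 after median-of-ratios scaling, and the values given here have not been corrected for that shift. Of all genes called, 34.4% were higher with TGFβ, against 50.2% after median-of-ratios scaling. Within genotypes 0.211% of genes were called with TGFβ in dHD1/fl, 1.43% in dHD1/-, 0.286% in dHD2/fl and 0.806% in dHD2/-, beside 0, 1 (Ahr), 0 and 0 of the 6. In the 3 genotypes without a call, limma gave an unadjusted p under 0.05 for 0 genes in dHD1/fl, 2 in dHD2/fl (Cyp1a1 and Tiparp) and 1 in dHD2/- (Ahr), and edgeR and DESeq2 called 0.

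**Figure D3:**
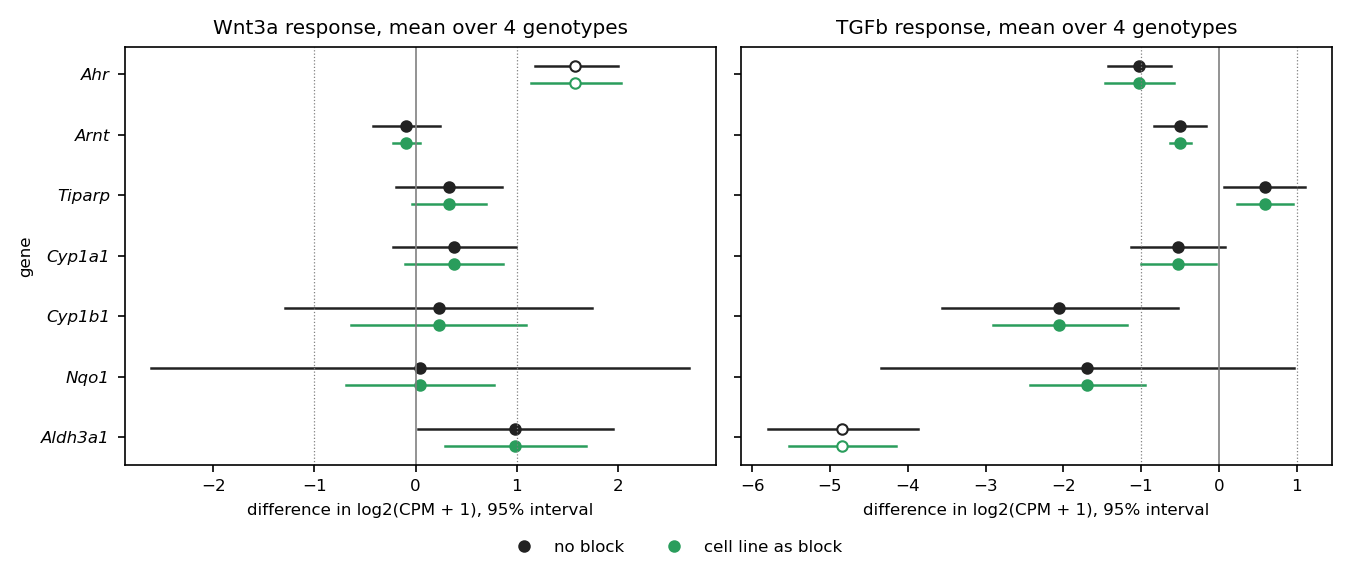
Difference between treated and untreated cells in log2(CPM + 1), averaged over the 4 genotypes, for the 7 genes that met the filter on low values (points, fitted difference; bars, 95% interval; black, no block; green, cell line as a block; dotted lines, the limit of 1 for a call). Open points are the responses by which Ahr and Aldh3a1 were chosen and carry no test. With the block, the intervals of Cyp1b1 and Nqo1 shorten to -2.91 to -1.18 and -2.43 to -0.95 with TGFβ.

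Removal of the floxed allele was compared within each family. In dHD2, the lines did not overlap and the recombined ones were lower for 4 of the 7 genes that met the filter without cytokine, 6 with Wnt3a and 6 with TGFβ, beside 14.9%, 15.6% and 13.6% of all genes. In dHD1 this held for 0, 3 and 3 of the 7, beside 16.1%, 9.95% and 22.7% of all genes. These counts include Ahr with Wnt3a and Aldh3a1 with TGFβ, whose own values in those libraries chose them. For 0 of the 7 the lines did not overlap with the recombined ones higher, beside 10.7%, 13.7% and 6.77% of all genes in dHD1 and 12.4%, 15.4% and 13.2% in dHD2. Arnt overlapped under every treatment in both families. Ahrr, which did not meet the filter, was also without overlap and lower in dHD1/- without cytokine and with TGFβ, but untreated this set 3 and 1 reads against 3 and 5. Most calls in dHD2 were lower in the recombined lines over all genes too, with 70 of 73 without cytokine, 85 of 91 with Wnt3a and 39 of 47 with TGFβ. For dHD2, 0.55% of all genes were called without cytokine, 0.686% with Wnt3a and 0.354% with TGFβ, beside 1 of 7, 2 of 6 and 0 of 6 of the genes open to a test. Aldh3a1 was called without cytokine (-4.26 ± 0.87, adjusted p = 0.0279), where the 3 dHD2/- lines held 19.6 to 57.6 CPM and the 2 dHD2/fl lines 295 and 1283 CPM, and with Wnt3a (-4.97 ± 0.87, adjusted p = 0.00757), at 41.4 to 69.3 CPM against 923 and 3729.6 CPM. The untreated libraries are shared with the contrast that chose Aldh3a1. Both calls rest on few independent lines. With dHD2/- lines 2 and 3 averaged, the adjusted p was 0.312 without cytokine and 0.078 with Wnt3a, without dHD2/- line 2 it was 0.268 and 0.0837, without dHD2/- line 3 0.345 and 0.0707, and without dHD2/fl line 1 0.375 (-3.20) and 0.112 (-3.97). With edgeR the adjusted p was 0.175 and 0.0739, and in limma on the compared groups alone 0.258 and 0.102. With a pseudocount of 0.1 the call without cytokine was lost too (limma, adjusted p = 0.0593).

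Apart from Aldh3a1 and, with Wnt3a, Cyp1a1, the genes tested in dHD2 did not pass. Ahr had a difference of -0.86 ± 0.37 without cytokine (adjusted p = 0.523), of -1.09 ± 0.37 with TGFβ (adjusted p = 0.377) and of -2.43 ± 0.37 with Wnt3a, the last without a test, and the lines did not overlap under any treatment. Cyp1b1 also showed no overlap under any treatment (-1.36, -1.94 and -2.42 without cytokine, with Wnt3a and with TGFβ, each ± 1.37). Untreated it was narrowly apart, at 140.7 CPM in dHD2/- line 1 against 144.2 CPM in dHD2/fl line 2. That difference was -0.58 without dHD2/fl line 1 and -2.14 without dHD2/fl line 2. Tiparp showed no overlap with Wnt3a (-1.14 ± 0.47) or TGFβ (-1.12 ± 0.47). Its difference with Wnt3a was -0.68, under the fold limit, without dHD2/fl line 1. Nqo1 differed by -4.90 ± 2.40 without cytokine (adjusted p = 0.602), where dHD2/- line 1 held 39.9 CPM and lines 2 and 3 held 0.0450 and 0.126 CPM. It differed by -5.16 ± 2.40 with Wnt3a (adjusted p = 0.567) and by -4.12 ± 2.40 with TGFβ (adjusted p = 0.736). Its lines were narrowly apart there, since dHD2/- line 1 held 30.7 CPM against 33.3 CPM in dHD2/fl line 2 with Wnt3a, and 3.44 against 4.90 CPM with TGFβ. Without dHD2/fl line 1 these differences were -3.32 and -1.77 (adjusted p = 1.0 in both), and with TGFβ the difference was -6.48 without dHD2/fl line 2 (adjusted p = 0.869). For dHD2 with TGFβ, where no gene of the 6 was called, limma gave an unadjusted p under 0.05 for 2 (Ahr and Tiparp), and edgeR and DESeq2 called 0.

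For dHD1, 0.0678% of all genes were called without cytokine, 0.0452% with Wnt3a and 0.0301% with TGFβ, and 0 of 7, 0 of 6 and 0 of 6 of the genes open to a test. An unadjusted p under 0.05 in limma was reached by 0 without cytokine, 1 with Wnt3a (Aldh3a1, -2.72 ± 0.96, adjusted p = 0.673) and 2 with TGFβ (Ahr and Cyp1b1). Ahr with TGFβ, at 5.52 and 6.52 CPM in dHD1/- against 28.8 and 18.5 CPM in dHD1/fl, had a difference of -1.79 ± 0.41 (adjusted p = 0.128) that DESeq2 called (adjusted p = 0.00479) and edgeR did not (adjusted p = 0.253), and that was called without dHD1/fl line 2 (-2.09, adjusted p = 0.0281). Cyp1b1 with TGFβ differed by -3.45 ± 1.5 (adjusted p = 0.545) and was called without dHD1/fl line 1 (-5.84, adjusted p = 0.027). Its size rests on single lines, at -1.06 (adjusted p = 0.689) without dHD1/fl line 2, -1.7 (adjusted p = 0.915) without dHD1/- line 1 and -5.2 (adjusted p = 0.244) without dHD1/- line 2. Ahr without cytokine overlapped between the genotypes (-0.05, 95% interval -0.91 to 0.80). With Wnt3a the difference was -2.06 ± 0.41 for Ahr, without a test, and -1.06 ± 0.51 for Tiparp (adjusted p = 0.856).

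**Figure D4:**
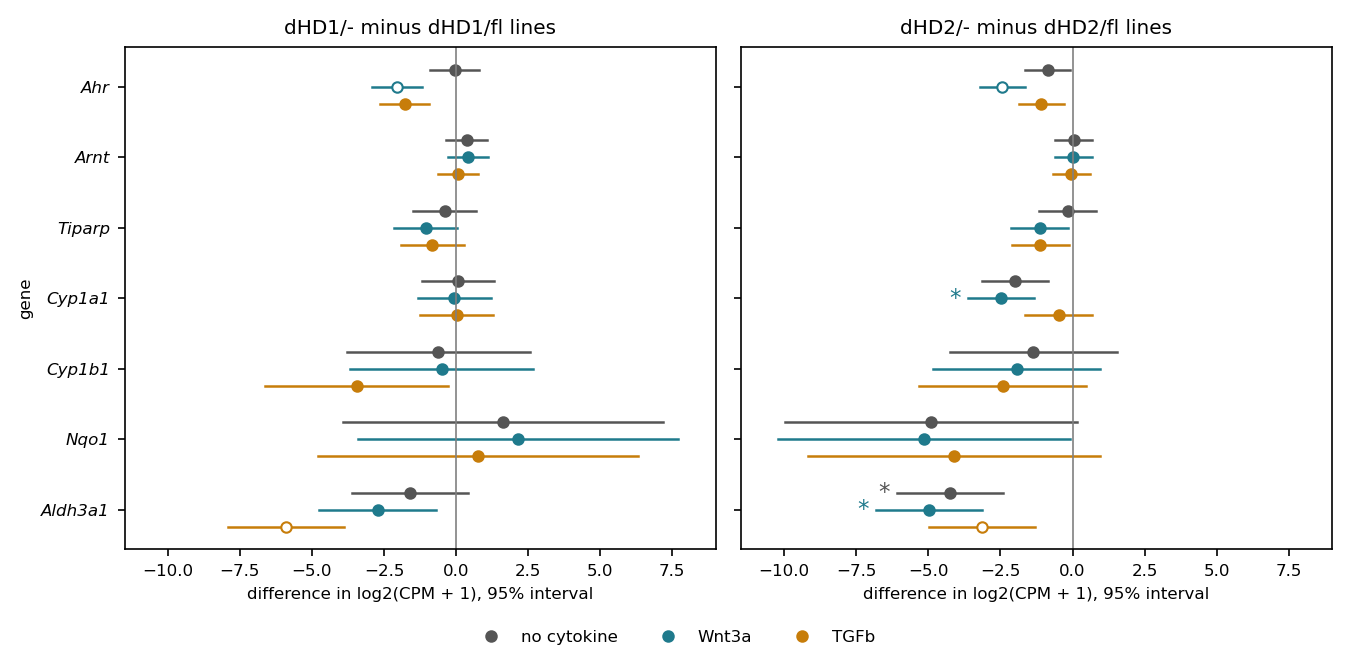
Recombined minus fl lines in log2(CPM + 1) for the dHD1 (left) and dHD2 (right) family, without cytokine (grey), with Wnt3a (teal) and with TGFβ (orange); points are fitted differences, bars their 95% intervals, open points are given without a test and asterisks mark calls. The 3 calls are Cyp1a1 with Wnt3a and Aldh3a1 without cytokine and with Wnt3a, all in dHD2 and all lower in dHD2/-.

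Whether a response itself depended on the floxed allele was fitted as a difference of responses. For Wnt3a, 0.0% of all genes were called in dHD1 (15 genes at an unadjusted p under 0.05 in limma, and 0 called by edgeR and 3 by DESeq2) and 0.0151% in dHD2, and for TGFβ 0.00754% in dHD1 and 0.0301% in dHD2, with 0 of the 6 open genes in each by limma, edgeR or DESeq2. An unadjusted p under 0.05 was reached by 1 of these, Ahr with TGFβ in dHD1. The design, with 2 or 3 lines a group, gave an SE of 0.43 to 3.73 for these differences, and Tiparp, for example, had a 95% interval of -2.36 to 0.44 for Wnt3a in dHD2.

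Other parts of the pathway were described by lists. With Wnt3a, in the mean over genotypes, 0 genes of these lists were called by limma, and 2 (Gsta2 and Npas3) had an unadjusted p under 0.05. Hsp90ab1, the main chaperone of the receptor, differed by 0.14 ± 0.17 with TGFβ (limma, adjusted p = 0.619). Of 6 further genes of the receptor's battery, 4 met the filter and 2 fell with TGFβ, namely Ugt1a6a (-1.94 ± 0.57, adjusted p = 0.0288) and Ugt1a6b (-1.89 ± 0.57, adjusted p = 0.0308), which conjugate glucuronic acid to phenols. These share exons and near-identical sequence, so they count as 1 observation. Both were also called by edgeR (adjusted p = 0.0447 and 0.043) and DESeq2 (0.00417 and 0.00375). They were not called when any line of dHD2/fl or dHD2/- was left out (0.0543 to 0.112) or with dHD2/- lines 2 and 3 averaged (0.0692 and 0.0734). The counts with TGFβ here and in the following lists stand beside the 5.42% of all genes called in the same comparison. The glutathione transferase Gsta1 had a change of -1.03 ± 0.43 (adjusted p = 0.114), Cyp1a2 had no read in any library and Cyp2s1 stayed at or under 0.634 CPM.

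Of 11 genes of the Nrf2 pathway, the other regulator of Nqo1, 1 was called lower with TGFβ and 0 higher, beside 5.42% of all genes. That gene was G6pdx, which supplies NADPH (-1.16 ± 0.19, adjusted p = 0.000706). It fell short of the fold limit with median-of-ratios scaling (-0.98), edgeR (-0.97) and DESeq2 (-0.95). Nfe2l2, which encodes Nrf2 itself, had a change of -0.61 ± 0.19 (adjusted p = 0.0381) and Txnrd1, thioredoxin reductase, one of 0.47 ± 0.16 (adjusted p = 0.0482), both under the fold limit, and Gsr, glutathione reductase, one of 0.18 ± 0.27 (adjusted p = 0.695). For Nfe2l2 the adjusted p was 0.136 with edgeR and 0.123 with DESeq2, and 0.0769 in limma with dHD2/- lines 2 and 3 averaged. For Txnrd1 it was 0.115 with these lines averaged, 0.0628 without a filter and 0.079 in the compared groups alone, against 0.00765 with edgeR. Of 9 genes that make or carry tryptophan-derived ligands, 3 met the filter and 0 were called in limma (1 at an unadjusted p under 0.05), with Ido1, Ido2, Tdo2, Kynu and Kmo each at or under 0.355 CPM in every library. With TGFβ the changes were -0.26 ± 0.17 for Slc3a2 (adjusted p = 0.334) and -0.42 ± 0.14 for Slc7a5 (adjusted p = 0.0499), which encode the chains of an amino acid transporter. For Slc7a5 the adjusted p was 0.229 with edgeR and 0.0853 in limma with dHD2/- lines 2 and 3 averaged. Afmid changed by -0.05 ± 0.19 (adjusted p = 0.89). Of 7 other partners of Arnt, 3 met the filter and 0 were called in limma (1 at an unadjusted p under 0.05), among them Hif1a (0.09 ± 0.27) and Epas1 (-2.61 ± 0.88, adjusted p = 0.0508). Of 7 other aldehyde dehydrogenases all met the filter and 1, Aldh3b1, fell with TGFβ (-1.04 ± 0.29, adjusted p = 0.0211). It was not called by edgeR (-0.98, adjusted p = 0.0619), by DESeq2 (-0.97, adjusted p = 0.0292) or with median-of-ratios scaling (-0.89, adjusted p = 0.0516). Nor was it called with dHD2/- lines 2 and 3 averaged (adjusted p = 0.0543) or without dHD1/- line 1, dHD2/- line 2 or 3 or either dHD2/fl line (adjusted p = 0.0501 to 0.0853). Aldh2, the mitochondrial acetaldehyde enzyme, had a change of -0.78 ± 1.09 (adjusted p = 0.673). Aldh3a2, a close relative of Aldh3a1, had one of -0.68 ± 0.24 (adjusted p = 0.0594) and Aldh1a3, which makes retinoic acid, one of 0.04 ± 0.84 (adjusted p = 0.979).

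The 8 genes were also compared by pattern, as Pearson's r over the 27 libraries of log2(CPM + 1) with the mean of each line taken out. The libraries of a line share their cells and those of a treatment their cytokine, so these values are descriptions and carry no p. The responses by which Ahr and Aldh3a1 were chosen also enter their values of r, here and in the lists of nearest genes below. Ahr and Aldh3a1 had r = 0.82 (0.85 with the line means left in), and Ahr had 0.70 with Cyp1b1, 0.61 with Nqo1, 0.60 with Arnt, 0.59 with Cyp1a1 and -0.02 with Tiparp. Aldh3a1 ran closest to Cyp1b1 and Nqo1 (both 0.86) and Arnt (0.85), and Tiparp was the one gene with negative values throughout (-0.56 with Nqo1, -0.40 with Arnt and Aldh3a1). With the line means left in, Tiparp had positive values throughout (0.06 to 0.36), and Arnt with Cyp1a1 went from 0.44 to -0.10.

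**Figure D5:**
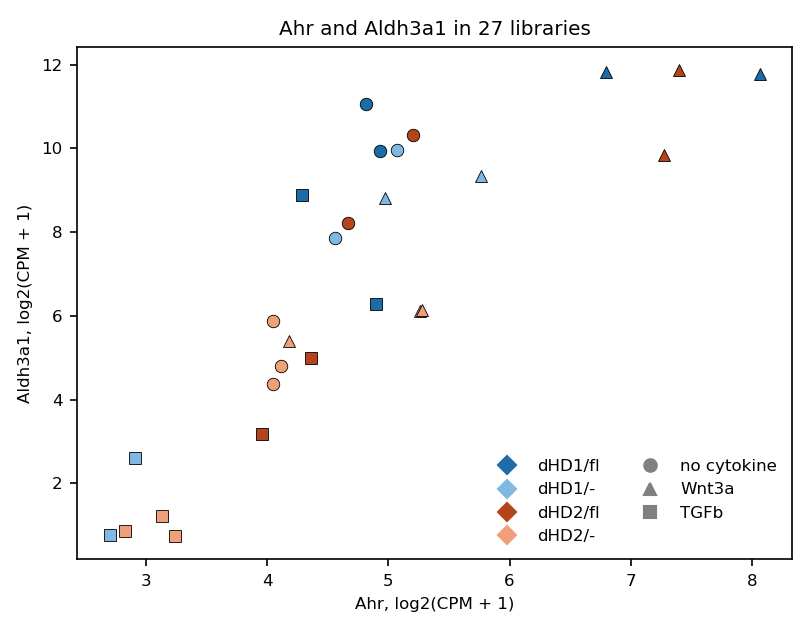
Aldh3a1 (y axis) against Ahr (x axis), both as log2(CPM + 1), in the 27 libraries (colour, genotype; circles, no cytokine; triangles, Wnt3a; squares, TGFβ). The 5 recombined libraries with TGFβ sit at the lower left and the 4 fl libraries with Wnt3a at the upper right.

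Over all genes that met the filter, the patterns most like that of Ahr were those of Adgrf4 (r = 0.901), Notum (0.885), Mcc (0.884), Nfe2l2 (0.882) and Ephb6 (0.875). Notum encodes a secreted inhibitor of Wnt proteins and ranged from 0.119 to 1283.8 CPM, and Nfe2l2 ranged from 61.8 to 274 CPM. The patterns most like that of Aldh3a1 were Tent5b (0.971), Notum and Narf (both 0.964), Arhgef10l and Tspan5 (both 0.963). By this measure Notum stood in both lists. By Spearman's rho, Ephb6, Notum and Nfe2l2 stayed among the 5 nearest to Ahr, and Arhgef10l and Notum among the 5 nearest to Aldh3a1, where Nfe2l2 came in too, so that Notum (0.919 and 0.927) and Nfe2l2 (0.905 and 0.926) stood in both. With the line means left in, Notum was in neither list, and the nearest genes were Atg3 for Ahr (r = 0.877) and Il1rn for Aldh3a1 (r = 0.902).

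The nearest 3 genes were Iqsec2, Ech1 and Sesn1 for Arnt (r = 0.967, 0.967 and 0.965), Cyb5r4, Pear1 and Mia2 for Tiparp (0.829, 0.825 and 0.824), Cwh43, Krt42 and Rnf208 for Cyp1a1 (0.881, 0.870 and 0.832), Tmem176a, Osbpl9 and Ccdc17 for Cyp1b1 (0.939, 0.931 and 0.929) and Lmtk3, Mgst1 and Stat5b for Nqo1 (0.960, 0.959 and 0.942). These lists depend on the measure. With the line means left in, 2 of the 3 were still among the nearest for Cyp1a1 and 0 for each of the other 4 genes, and by Spearman's rho 2 for Arnt and Nqo1, 1 for Tiparp and 0 for Cyp1a1 and Cyp1b1.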

How the data were processed

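RNA of 27 cultures (9 cell lines, each without cytokine, with Wnt3a and with TGFβ) was sequenced as stranded mRNA libraries. Per the study's methods, the authors aligned single reads to mm10 with STAR, kept unique hits and counted RefSeq exons with QuasR. They deposited counts per 1000000 reads (CPM) for 24454 Entrez genes, with replicates separate. Every value gave whole reads (100% within 0.1 read), which set each library's depth. The members and lists were chosen with earlier results of these data known.

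The test was limma (version 3.58.1, R version 4.3.3, trend and robust) on the values as log2(CPM + 1), over 12 group means, for 13270 genes with at least 1 CPM in 2 libraries. A gene was called where its p, adjusted by Benjamini-Hochberg, did not exceed 0.05 and its difference reached 1. Values deviated together within a line (r = 0.509 to 0.940 over 27 pairs of libraries of the same line), so that lines pair the treatments, and the fit was repeated with the line as a block. Alternatives were edgeR 4.0.16 and DESeq2 1.42.0 on the recovered reads, median-of-ratios scaling, a pseudocount of 0.1, no filter, the compared groups alone, an unadjusted p with a 1.5-fold limit, and leaving out each line. Another 2 were chosen after seeing the data (dHD2/- lines 2 and 3 averaged, and both dHD1 lines numbered 2 left out). The code was tested on simulated data. Named genes are the 8 members, up to 4 genes per list (those called, then those of highest mean CPM) and the nearest 5 genes by correlation for Ahr and Aldh3a1 or 3 for the others. Marker genes and list genes outside that rule (those near 0 CPM, and Gsta2 and Npas3) were named after their values were seen. Promoters came from RefSeq (GRCm38.p6) and exon lengths from GENCODE vM21. The counts for the list of the receptor's chaperones are not reported here.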

Additional observations from a re-analysis of the deposited data

Results flagged for a closer look

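The Wnt3a response of Tiparp differed in sign between the dHD1 genotypes: both dHD1/fl lines were higher with Wnt3a (0.36 and 0.83 on the log2(CPM + 1) scale) and both dHD1/- lines lower (-0.07 and -0.06). The difference between the responses was -0.66 ± 0.73, which did not pass (limma, adjusted p = 1.0), and with 2 lines a group its cause was not tested.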

How the results depend on the processing

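The counts of genes called among those open to a test (6, or 7 without cytokine) moved as follows. For the mean TGFβ response the count went from 1 to 0 with median-of-ratios scaling, edgeR and DESeq2, to 3 with an unadjusted p and a 1.5-fold limit, and to between 0 and 2 when single lines were left out. With the cell line as a replicate block (a paired fit) it was 3, and 1184 of all genes were called in place of 719; within genotypes the replicate block gave 3 in place of 1 in dHD1/- and 1 in place of 0 in dHD2/fl, and changed no other call on TGFβ or Wnt3a. For TGFβ in dHD1/- the count was 0 in the compared groups alone and with dHD2/- lines 2 and 3 averaged, and 0 to 2 with a line left out. For dHD2/- against dHD2/fl without cytokine it went from 1 to 0 with a pseudocount of 0.1, in the compared groups alone, with edgeR and with the averaged lines, to 2 with DESeq2, and to 0 to 2 with a line left out. With Wnt3a it went from 2 to 0 in the compared groups alone, with edgeR and with the averaged lines, and to 0 to 2 with a line left out. For dHD1/- against dHD1/fl with TGFβ it went from 0 to 1 with DESeq2 and without both dHD1 lines numbered 2, and to 0 to 1 with a line left out. Without both dHD1 lines numbered 2 it was also 1 in place of 0 for TGFβ in dHD2/- and for dHD2/- against dHD2/fl with TGFβ (Cyp1b1 in both). An unadjusted p with a 1.5-fold limit gave 1 for the mean Wnt3a response, 2, 2 and 1 for TGFβ in dHD1/-, dHD2/fl and dHD2/-, 1 and 2 for dHD1/- against dHD1/fl with Wnt3a and TGFβ, 3, 4 and 2 for dHD2/- against dHD2/fl without cytokine, with Wnt3a and with TGFβ, and 1 for the TGFβ response of dHD1/- against dHD1/fl. Of 2308 single-gene values over 122 results, 34 lost a call, 36 gained one and 0 reversed, and 2209 kept their sign. With 1 line left in a group, it was assumed to vary like the others. The recombined lines were made by Cre infection of tumour lines, but no source used here says that lines of the same number in a family share a tumour. For such lines, the deviations of the libraries from their group means correlated at r = 0.087 to 0.472 over 12 pairs, all above 0 but not all above 0.1. In dHD1, with 2 lines in each genotype, these deviations mirror each other, so the 12 pairs are not 12 separate values. With this number as a replicate block, the comparisons of recombined with fl lines changed no call of these genes, while the count over all genes went from 9, 6 and 4 to 37, 41 and 84 in dHD1 and from 73, 91 and 47 to 156, 180 and 115 in dHD2 (without cytokine, with Wnt3a and with TGFβ). The causes were not tested. Depth limits Ahrr and Cyp1a1, which stood near 3 reads in many libraries.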
